A study of Mus musculus with 6 samples.

Results

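The enzymes of triglyceride synthesis were examined here in inguinal white adipose tissue, a depot under the skin of the groin. They are 8 genes picked by symbol, Gpam, Agpat2, Agpat3, Lpin1, Dgat1, Dgat2, Gpd1 and Pnpla3, and all 8 are among the 25894 Ensembl identifiers of the deposited table. The libraries came from 15-week-old female C57BL/6N mice, 1 library per mouse. The SF 8w-SR 2w group held 3 mice that had 8 weeks of sleep fragmentation followed by 2 weeks of sleep recovery, and the Control group held 3 mice labelled control. All mice were fasted for 10 h before the fat was frozen, and no group was sampled at the end of fragmentation, before recovery. The comparison asks whether transcripts of the pathway differed from controls after the recovery sleep.

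Adipocytes store fatty acids as triglyceride, built on a glycerol-3-phosphate backbone. Gpd1 makes glycerol-3-phosphate from a glycolytic intermediate, acyltransferases of the GPAT and AGPAT families add fatty acyl chains to give phosphatidate, lipins remove its phosphate to give diacylglycerol, and the DGAT enzymes add the last acyl chain. Pnpla3, also called adiponutrin, is a lipid droplet protein with acyl hydrolase and transacylase activity, and its transcript in mouse fat is known to be low in fasting and high after feeding. Insulin, through SREBP-1c and ChREBP, and PPARγ are known to raise transcripts of many of these enzymes in fat.

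Promoter sequence is shown for Gpam, Agpat2 and Pnpla3. Gpam was the enzyme with the largest difference between the groups, and Agpat2 and Pnpla3 were among those whose levels across mice ran apart from it. Their Pearson r with Gpam over the 6 libraries was -0.47 and -0.26. Agpat3, whose window is not printed, had the lowest, at -0.62. RefSeq windows were found for 5 of the 8 enzymes. Each printed stretch is the 250 bases before a start site, 5′ to 3′ on the gene's strand, from RefSeq on GRCm38.p6, a later build than the mm8 named for the deposited data. Capitals mark matches to any of these motifs, each searched on both strands. The letters GGGCGG stand for a GC box. The box bound by NF-Y is known by its letters CCAAT. An E-box, a site for helix-loop-helix factors, reads CANNTG.
Gpam, chr19:55127239-55127488, minus strand: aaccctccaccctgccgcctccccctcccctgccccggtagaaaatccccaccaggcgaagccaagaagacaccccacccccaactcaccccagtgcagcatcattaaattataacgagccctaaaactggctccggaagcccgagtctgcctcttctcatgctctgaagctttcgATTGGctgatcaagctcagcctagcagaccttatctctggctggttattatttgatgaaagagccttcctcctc
Gpam, chr19:55099478-55099727, minus strand: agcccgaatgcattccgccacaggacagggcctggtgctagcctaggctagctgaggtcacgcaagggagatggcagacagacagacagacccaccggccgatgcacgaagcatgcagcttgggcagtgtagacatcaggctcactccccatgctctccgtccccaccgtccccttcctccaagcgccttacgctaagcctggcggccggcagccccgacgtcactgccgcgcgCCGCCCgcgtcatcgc
Agpat2, chr2:26604418-26604667, minus strand: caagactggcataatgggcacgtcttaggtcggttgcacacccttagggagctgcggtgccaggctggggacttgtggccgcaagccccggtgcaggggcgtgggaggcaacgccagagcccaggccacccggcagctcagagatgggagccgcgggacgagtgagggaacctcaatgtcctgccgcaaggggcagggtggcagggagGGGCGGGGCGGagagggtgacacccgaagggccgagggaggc
Pnpla3, chr15:84167566-84167815, plus strand: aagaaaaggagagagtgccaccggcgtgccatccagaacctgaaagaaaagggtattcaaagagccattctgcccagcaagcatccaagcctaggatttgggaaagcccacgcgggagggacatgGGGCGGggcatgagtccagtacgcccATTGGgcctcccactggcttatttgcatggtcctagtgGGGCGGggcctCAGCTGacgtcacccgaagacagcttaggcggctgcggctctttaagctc

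These windows differ in the letters they hold. The Gpam window ending at the higher coordinate held 1 CCAAT box, and the other Gpam window held 1 GC box. Agpat2 held 2 GC boxes that overlap each other, and Pnpla3 held 1 E-box, 1 CCAAT box and 2 GC boxes. Among 32851 RefSeq windows of the same length, 66.2% held an E-box, 33.8% a CCAAT box and 32.7% a GC box. The sterol regulatory element core TCACNCCAC, which 1.05% of windows held, and the perfect E-box CACGTG, which 6.02% held, matched none of the 6 windows of the 5 enzymes. The letters are a description of these windows only.

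Libraries held between 15610201 and 19703569 recovered reads, and levels are given as normalised read counts, which are reads divided by a size factor for each library. Markers of other tissues varied strongly between mice in both groups. Summed levels of 15 B and plasma cell markers were 3506, 37861 and 1874 in SF 8w-SR 2w 1, 2 and 3, and 2167, 93702 and 23849 in Control 1, 2 and 3. Summed levels of the 16 adipocyte markers ranged from 683894 to 1284590 in SF 8w-SR 2w mice and from 740074 to 1060670 in Control mice, and no adipocyte marker was at 0 in any library. Summed levels of 12 skeletal muscle markers were 90605 in SF 8w-SR 2w 1, against 593 to 11447 in the other libraries. On the first principal component, which held 42.3% of the variance, Control 2 and Control 3 lay at 116.2 and 111.5, Control 1 at -77.0, and the SF 8w-SR 2w mice at -90.6, 8.8 and -69.0. In whole tissue, fewer cells of a type and less RNA per cell cannot be told apart.

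None of the 8 enzymes passed the test, and the SF 8w-SR 2w and Control values overlapped for each of them. With limma on log2(value + 1) and Benjamini-Hochberg adjustment over 22290 genes at an FDR of 0.05, 0 of 8 enzymes were called, beside 0% of all genes tested. At an unadjusted p under 0.05 there were 0 of 8, beside 5.39% of all genes, and 0 of 8 had groups that did not overlap, beside 8.59% of all genes. On the recovered reads, edgeR and DESeq2 called 0 of 8 enzymes and 0 genes in all. limma-voom with quality weights called 0 of 8 enzymes and 1023 of the 16141 genes it tested, with a smallest adjusted p of 0.0451. In that fit 1 of 8 enzymes and 5307 genes had an unadjusted p under 0.05. By direction, 4 enzymes had higher means on the log2 scale in SF 8w-SR 2w mice and 4 lower, and with library size in place of the size factors 7 were higher and 1 lower. The median log2 difference was 0.06 over the 8 and 0.02 over all genes. The differences ran from -0.51 for Gpam to 0.38 for Pnpla3.

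**Figure D1:**
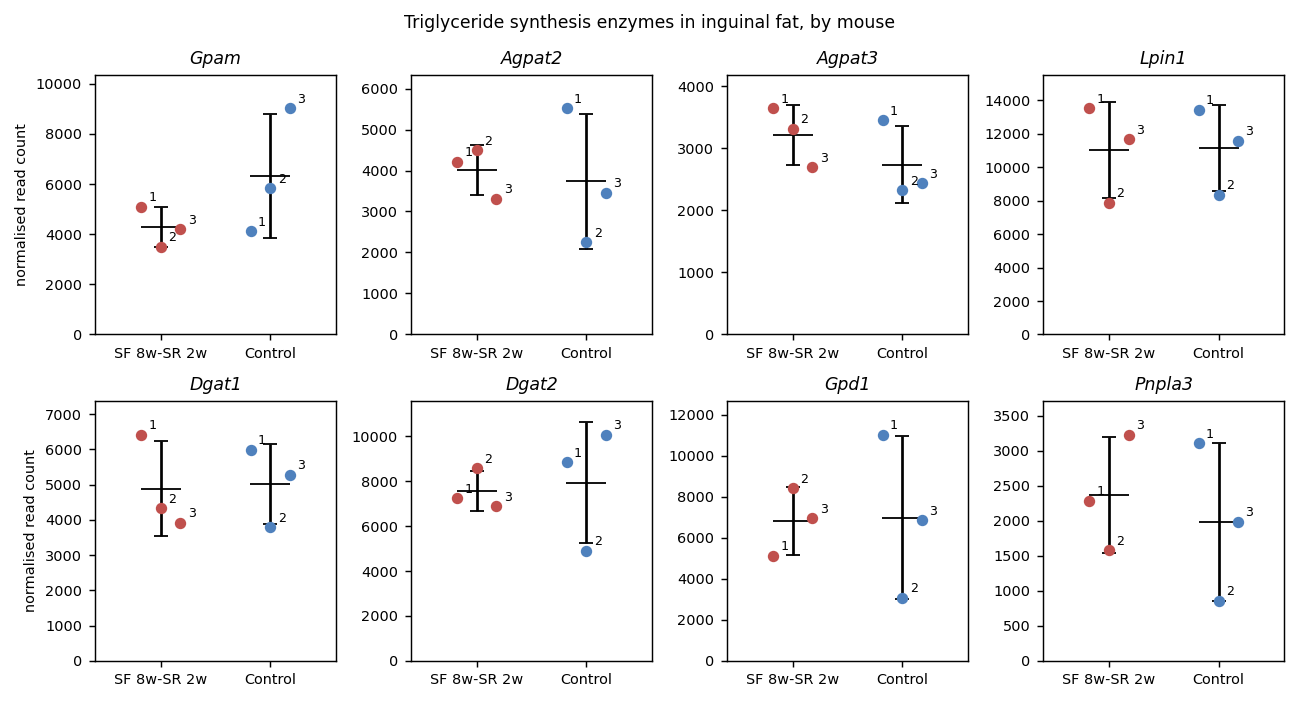
Normalised read count of each enzyme (y axis, from 0) in the 3 SF 8w-SR 2w and 3 Control mice. Each numbered point is a mouse, and the horizontal mark and bars are the group mean and SD. In every panel the groups overlap, and Control 2 is the lowest mouse in 6 of the 8 panels.

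Glycerol-3-phosphate supply came first in the pathway, with Gpd1 (ENSMUSG00000023019), the cytosolic glycerol-3-phosphate dehydrogenase. Gpd1 had normalised read counts of 5114, 8410.0 and 6952 in SF 8w-SR 2w mice, against 11016, 3068 and 6849 in Control mice. The extremes were both controls, so every SF 8w-SR 2w mouse lay inside the Control range. The group averages were 6826 ± 1652 in SF 8w-SR 2w mice and 6978 ± 3976 in Control mice (SD, n = 3 each). The log2 difference, taken between means of log values, had the other sign, at 0.12 (95% interval -0.85 to 1.10, limma adjusted p = 0.936), and edgeR and DESeq2 on recovered reads gave -0.011 and -0.032. Without Control 2 the difference turned to -0.38, and without Control 1 it was 0.54, neither passing.

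Among the acyltransferases that begin assembly of the lipid, the difference was below 0 for Gpam and above 0 for Agpat2 and Agpat3, and none passed. Agpat2 had -0.39 once trends on GC content and length were removed. Gpam (ENSMUSG00000024978), which encodes the mitochondrial glycerol-3-phosphate acyltransferase GPAT1, had 5101, 3504 and 4205 in SF 8w-SR 2w mice, against 4124, 5843 and 9013 in Control mice. Control 3 was the highest mouse and SF 8w-SR 2w 2 the lowest, and Control 1 lay among the SF 8w-SR 2w mice. Mean levels were 4270.0 ± 800.2 in SF 8w-SR 2w mice and 6327 ± 2480 in Control mice (SD, n = 3 each), a log2 difference of -0.51 (95% interval -1.22 to 0.20, limma adjusted p = 0.697). Gpam was lower in SF 8w-SR 2w mice under all 20 alternative settings, which reuse the same mice, at between -0.84 and -0.22. Adjusted p-values over these settings ran from 0.0698 to 0.976. Some settings, such as other filters and the replicate block, leave the estimate at -0.51 and cannot change its sign. Without Control 1 it was -0.78 (limma adjusted p = 0.139), and without Control 3 it was -0.22.

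Agpat2 (ENSMUSG00000026922) encodes the endoplasmic reticulum acyltransferase whose loss causes generalised lipodystrophy in humans and mice. It had 4215, 4493 and 3314 in SF 8w-SR 2w mice, against 5514, 2249 and 3453 in Control mice, so the SF 8w-SR 2w values again lay within the Control range. The log2 difference was 0.18 (95% interval -0.56 to 0.93, limma adjusted p = 0.864), and it turned to -0.13 without Control 2 and was 0.51 without Control 1. Agpat3 (ENSMUSG00000001211), an acyltransferase of the endoplasmic reticulum and Golgi, had 3644, 3320.2 and 2694 in SF 8w-SR 2w mice, against 3451, 2326 and 2441 in Control mice. Only Control 1 overlapped the SF 8w-SR 2w range, and the log2 difference was 0.24 (95% interval -0.32 to 0.81, limma adjusted p = 0.765). Agpat3 was higher in SF 8w-SR 2w mice under all 20 alternatives, which reuse the same mice, at between 0.04 and 0.42, and passed in none.

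Lpin1 (ENSMUSG00000020593) encodes lipin 1, the phosphatidate phosphatase that is mutated in the fatty liver dystrophy mouse. Its levels were 13519, 7893 and 11664 in SF 8w-SR 2w mice, against 13452, 8369 and 11589.9 in Control mice. Each group held a mouse near the top, the middle and the bottom of the range, and the log2 difference was -0.02 (95% interval -0.72 to 0.67, limma adjusted p = 0.985).

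The DGAT enzymes Dgat1 and Dgat2 catalyse the same last step but belong to unrelated protein families. Dgat1 (ENSMUSG00000022555) had 6416, 4326 and 3920.3 in SF 8w-SR 2w mice, against 5993, 3789 and 5279 in Control mice, a log2 difference of -0.05 (95% interval -0.69 to 0.59, limma adjusted p = 0.964). Dgat2 (ENSMUSG00000030747) had 7257, 8578 and 6889.9 in SF 8w-SR 2w mice, against 8844, 4915 and 10075 in Control mice, a log2 difference of -0.01 (95% interval -0.71 to 0.69, limma adjusted p = 0.993). For Dgat2 the SF 8w-SR 2w mice lay inside the Control range, while for Dgat1 the highest mouse was SF 8w-SR 2w 1.

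Pnpla3 (ENSMUSG00000041653) varied most between mice among the 8, with a 3.76-fold span. It had 2284, 1576 and 3229 in SF 8w-SR 2w mice, against 3106, 858 and 1986 in Control mice. Control 2 was far below the other mice, and Control 1 was close to SF 8w-SR 2w 3, the highest. The log2 difference of 0.38 (95% interval -0.63 to 1.39, limma adjusted p = 0.794) turned to -0.13 without Control 2 and was 0.79 without Control 1, and passed in neither.

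**Figure D2:**
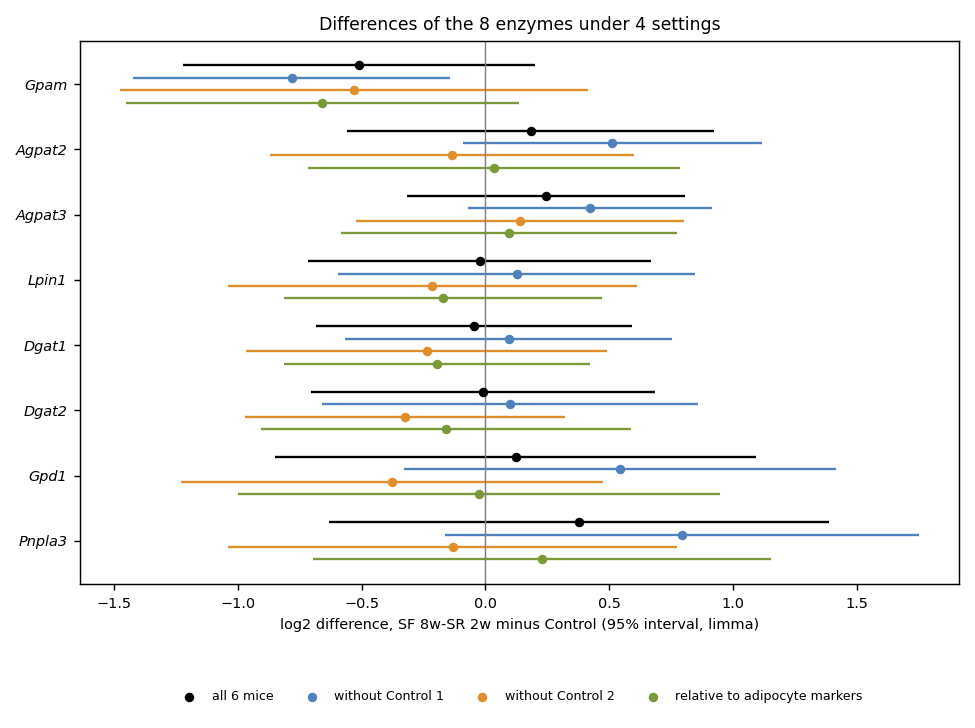
Log2 difference of each enzyme, SF 8w-SR 2w minus Control, with its 95% interval from limma (x axis), for all 6 mice, without Control 1, without Control 2, and with each library set relative to adipocyte markers. With all 6 mice each interval spans 0, and the point estimates of 6 enzymes, all but Gpam and Agpat3, are above 0 without Control 1 and below 0 without Control 2, with intervals that span 0 in both fits.

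The intervals bound what these 6 mice could show. The narrowest, for Agpat3, ran from -0.32 to 0.81, and the widest, for Pnpla3, from -0.63 to 1.39, so a log2 difference of 1 lay inside the intervals for Gpd1 and Pnpla3, and one of -1 inside that for Gpam. Without Control 1 the interval for Gpam ran from -1.42 to -0.14, with an unadjusted limma p of 0.0228. Gpam did not pass after adjustment, in a fit that called 3.79% of all genes. That fit gave 5431 of 22290 genes an unadjusted p under 0.05, and Gpam was the only one of the enzymes among them.

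Control 2 was the lowest library for 6 of the 8 enzymes, Agpat2, Agpat3, Dgat1, Dgat2, Gpd1 and Pnpla3, and SF 8w-SR 2w 2 for Gpam and Lpin1, a pattern described after the values were seen. Control 2 was the lowest library for 17.5% of all genes tested. Its enzyme deviations from the 6-mouse mean on the log2 scale ran from -1.21 for Pnpla3 and -1.06 for Gpd1 to -0.34 for Agpat3, with Gpam apart at 0.21. Control 2 also had the lowest mean deviation of adipocyte markers, at -0.39 on the log2 scale, and the highest of B and plasma cell markers, at 4.20. By summed level, which the most abundant markers set, SF 8w-SR 2w 2 was lowest for the adipocyte markers. The part of tissue makeup in the low enzyme values of Control 2 was not tested.

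Relative to adipocyte markers, with the mean log2 deviation of the 16 markers subtracted from each library, 3 enzymes were higher in SF 8w-SR 2w mice and 5 lower, and 0 passed. The markers did not move together. Before the subtraction 10 were higher in SF 8w-SR 2w mice and 6 lower, from -0.93 for Acvr1c to 0.97 for Fabp4, so this scale depends on the markers chosen. On that scale Gpam had a difference of -0.66, and Agpat2 and Pnpla3 had 0.04 and 0.23. Median over the 8 enzymes was -0.09 and over all genes -0.13.

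**Figure D3:**
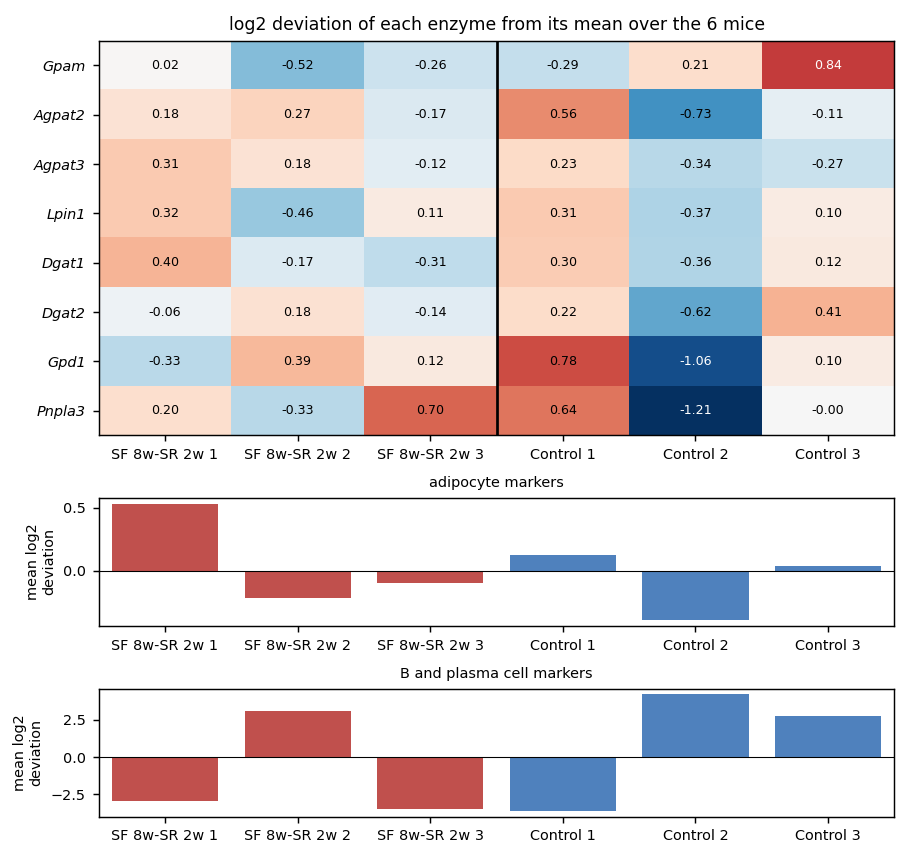
Upper panel, log2 deviation of each enzyme (rows) from its own mean over the 6 mice (columns), red above and blue below the mean. The bar panels give the mean log2 deviation of 16 adipocyte markers and of 15 B and plasma cell markers in the same libraries. Control 2 is blue in 7 of 8 rows, from -1.21 to -0.34, and has the lowest adipocyte and highest B cell bars, at -0.39 and 4.20.

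Libraries also differed in how gene levels ran with the GC content of the transcripts, and the cause was not tested. Transcripts of Agpat2, Dgat1, Dgat2, Gpd1 and Pnpla3 had a GC content of 56.3% to 58.4%, Agpat3 54.2%, Lpin1 50.1% and Gpam 48.6%, beside a median of 49.1% over all genes tested. The rank correlation across genes of a library's deviation with GC content was -0.27 in Control 2 and in Control 3 against 0.13 to 0.37 elsewhere. No test is attached, since genes are not independent replicates. The median log2 deviation of the 8 enzymes was -0.50 in Control 2 and 0.10 in Control 3. With each library's trends on GC content and transcript length removed, 2 enzymes were higher in SF 8w-SR 2w mice and 6 lower, with a median of -0.31, beside -0.02 over all genes, and 0 passed.

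Levels between enzymes were compared per kilobase of exon, with the exons of all annotated transcripts of a gene merged. These lengths ran from 1548 bases for Pnpla3 to 9665 for Lpin1, and the order and the isoenzyme shares rest on them. Before this division Lpin1 had the highest mean counts, at 11025 in SF 8w-SR 2w mice and 11137 in Control mice. Dgat2 had the highest mean, at 2457 ± 288 normalised reads per kb in SF 8w-SR 2w mice and 2577 ± 874 in Control mice (SD, n = 3 each). It was followed by Gpd1, Agpat2, Dgat1, Pnpla3, Lpin1, Gpam and Agpat3, the lowest at 413 ± 62.0 in SF 8w-SR 2w mice and 352 ± 79.5 in Control mice. Neighbours in this order overlapped in their ranges over the 6 mice, except Gpam, which was above Agpat3 in 6 of 6 mice with ranges that did not overlap. Dgat2 was above Gpd1, and Agpat2 above Dgat1, in 3 of 6 mice. Gpd1 was above Agpat2, Dgat1 above Pnpla3 and Lpin1 above Gpam in 4 of 6, and Pnpla3 above Lpin1 in 5 of 6. Apart from Gpam over Agpat3, the order of neighbours is not settled by these data.

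The balance of isoenzymes at each step was also compared, in percent of reads per kb of exon, a measure chosen after the values were seen. Dgat1 made up 47.1%, 33.7% and 36.5% of the DGAT transcripts in SF 8w-SR 2w mice, against 40.6%, 43.7% and 34.6% in Control mice. Lpin1 took 87.5% ± 6.19 of the lipin transcripts in SF 8w-SR 2w mice and 90.9% ± 2.26 in Control mice, so the other lipins were minor in both groups. Agpat2 was the leading AGPAT, at 66.1% ± 1.65 in SF 8w-SR 2w mice and 64.4% ± 6.95 in Control mice. At the GPAT step, Gpam shared its place with Gpat4 and Gpat3 and took 34.0% ± 4.14 in SF 8w-SR 2w mice and 35.7% ± 4.62 in Control mice. Gpd1 took 89.5%, 92.9% and 91.1% of cytosolic glycerol-3-phosphate dehydrogenase transcripts in SF 8w-SR 2w mice, against 94.5%, 69.6% and 84.7% in Control mice, where Control 2 was lowest. For the 6 shares tested, two-sided exact permutation p-values ran from 0.4 to 1, each with an adjusted p of 1, and 3 mice against 3 cannot go below 0.1.

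**Figure D4:**
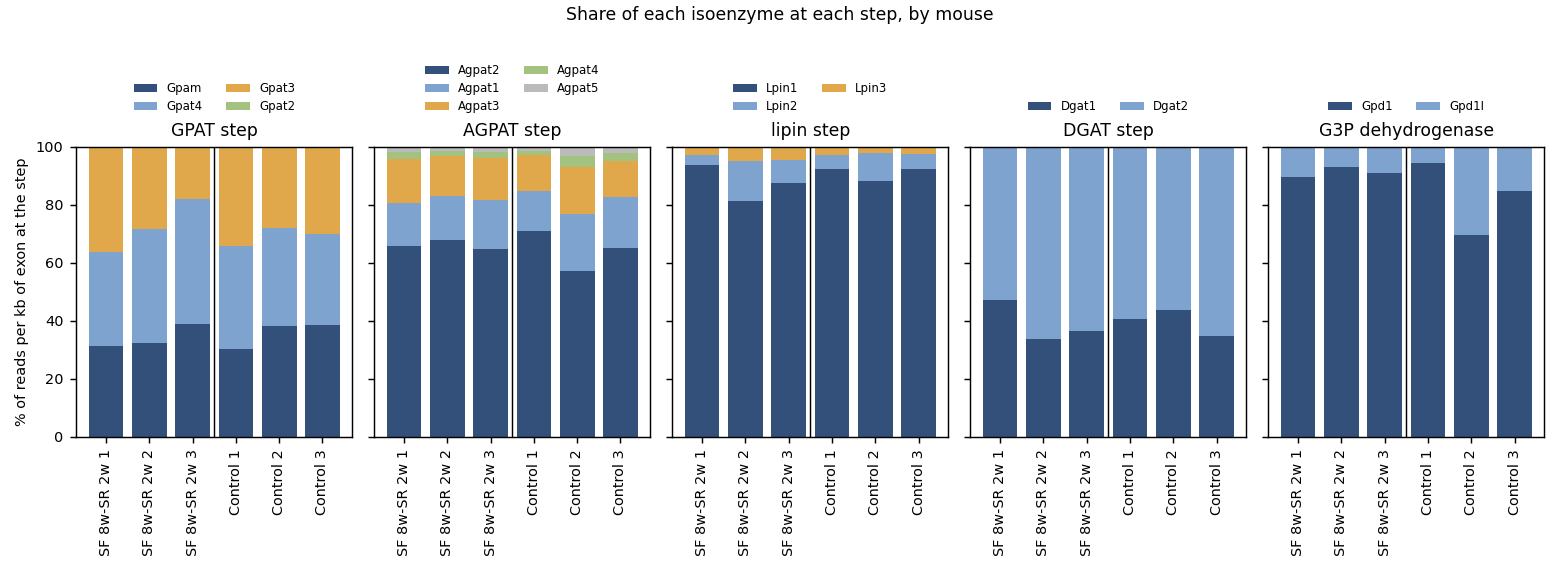
Share of each isoenzyme among the transcripts of its step (y axis, percent of normalised reads per kb of exon) in each mouse. Lpin1 takes between 81.3% and 93.7% of the lipin step in all 6 mice, and the largest departure at any step is Gpd1 in Control 2, at 69.6%.

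The other isoenzymes of the pathway did not pass either. Of 12 further acyltransferases, lipins and dehydrogenases, 3 were higher and 9 lower in SF 8w-SR 2w mice, with a median log2 difference of -0.24 beside 0.02 over all genes, and 0 were called. Gpat4 and Gpat3, acyltransferases of the endoplasmic reticulum at the step of Gpam and the most abundant of the 12 per kb, had differences of -0.26 and -0.65. Lpin3, a minor lipin, had 157, 182 and 233 in SF 8w-SR 2w mice, against 153, 82.5 and 127 in Control mice. All 3 SF 8w-SR 2w mice lay above all controls, by a narrow margin over Control 1, and the log2 difference was 0.68 (SE 0.37, limma adjusted p = 0.697). Higher values without overlap were seen for 5.02% of all genes and lower ones for 3.58%.

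Gpd1l, a relative of Gpd1 that was chosen after its values were seen, had 1031, 1098 and 1170.1 in SF 8w-SR 2w mice, against 1102, 2297 and 2118 in Control mice. Control 1 lay with the SF 8w-SR 2w mice, and the log2 difference was -0.67 (SE 0.30, limma adjusted p = 0.697). Without Control 1 it was -1.01 and passed (limma adjusted p = 0.0390), as it did by limma-voom with quality weights (adjusted p = 0.0470). Leaving out Control 1 called 3.79% of all genes, and limma-voom with quality weights called 1023 of 16141, with a smallest adjusted p of 0.0451.

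Genes of glycerol handling or droplet formation gave no call. Of 4 glycerol handling genes, labelled glycerol supply in the figure, 2 were higher and 2 lower, with a median of -0.20. Not all of them add to supply, so this median is no measure of it. Pck1, the phosphoenolpyruvate carboxykinase that feeds glyceroneogenesis, had a log2 difference of 0.15, and Aqp7, the glycerol channel of adipocytes, 0.16. The other members of the list, named after their values were seen, were Gpd2, the mitochondrial glycerol-3-phosphate dehydrogenase, at -0.60 and Gk, glycerol kinase, at -0.56 (limma adjusted p = 0.697 and 0.714). Among 3 droplet formation genes 1 was higher and 2 lower, with a median of -0.02. Fitm2 had -0.24, and Bscl2, which encodes seipin, -0.02.

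Genes of the phospholipid branch, which draw on the same phosphatidate and diacylglycerol, were lower in 7 of 10 and higher in 3, with a median of -0.20 and 0 called. Chpt1, the cholinephosphotransferase that turns diacylglycerol into phosphatidylcholine, had 33272, 19306 and 28871 in SF 8w-SR 2w mice, against 44350.1, 45172 and 61855 in Control mice. All 3 SF 8w-SR 2w mice lay below all controls, as was so for 3.58% of all genes. The log2 difference was -0.91 (SE 0.35), with a limma adjusted p of 0.697, so it did not pass. Its unadjusted limma p was 0.0286, and 5.39% of all genes had one under 0.05. limma-voom with quality weights, which called 1023 of 16141 genes, gave Chpt1 -1.06 with an adjusted p of 0.0494. The smallest adjusted p of that fit was 0.0451. Chpt1 has a GC content of 37.9%, and with GC content and length trends removed its difference was -0.36. Crls1, the cardiolipin synthase, had -0.16. Pgs1, which acts on the way to cardiolipin, had 461, 576 and 469.5 in SF 8w-SR 2w mice, against 453, 448 and 420.0 in Control mice. Its log2 difference was 0.18 without overlap, and 5.02% of all genes were higher without overlap.

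Transcription regulators of lipid synthesis were split, with 5 of 10 higher and 5 lower, a median of -0.02 and 0 called. Cebpa and Pparg, the adipocyte master regulators, were the most abundant per kb and had differences of 0.20 and 0.06. Srebf1 and Mlxipl, the genes of SREBP-1c and ChREBP, were named after their values were seen. They had differences of -0.25 and 0.39 (limma adjusted p = 0.783 and 0.737).

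**Figure D5:**
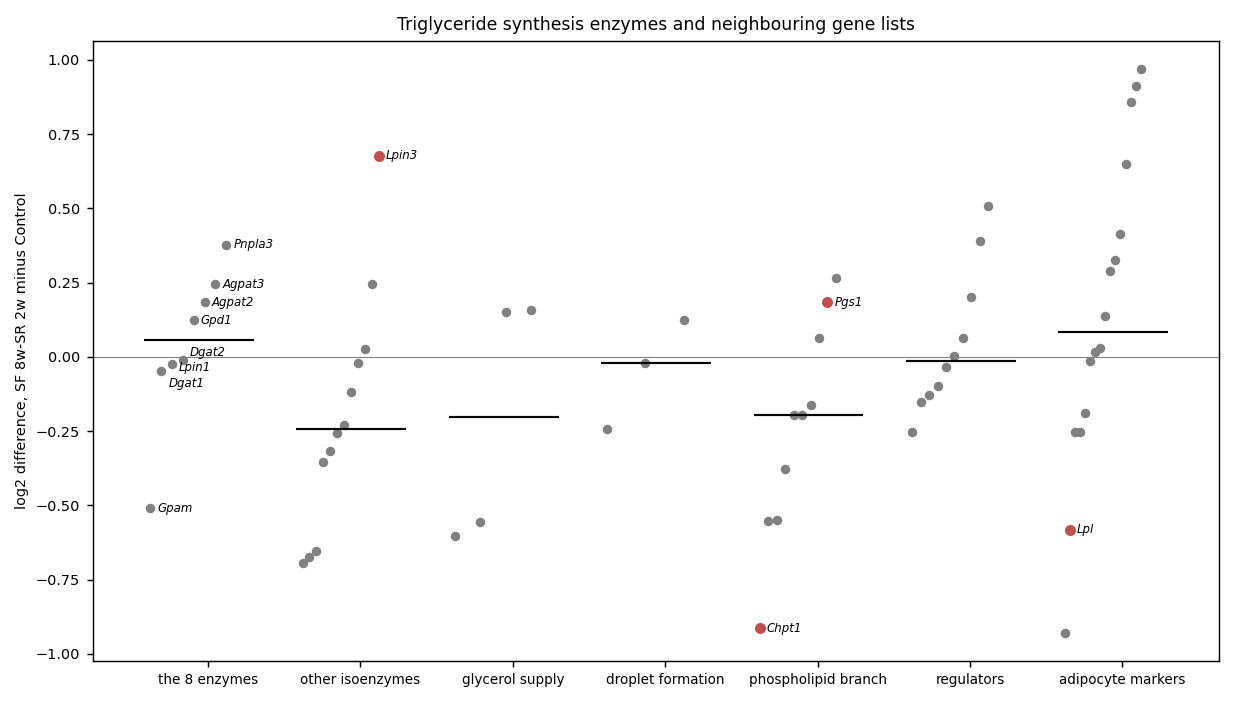
Log2 difference, SF 8w-SR 2w minus Control (y axis), of every tested gene in the 8 enzymes, the neighbouring lists and the adipocyte markers (x axis). Black lines are list medians and red points are genes whose groups do not overlap, beside 8.59% of all genes tested. They are Lpin3 and Pgs1 above 0 and Chpt1 and Lpl below 0, none of which passed the test.

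Genes whose levels ran most like each enzyme over the 6 mice were sought among 12938 genes with a mean of at least 50. For Gpam they were 2210408I21Rik and Prkar2a, a regulatory subunit of protein kinase A, with Pearson r of 0.998 and 0.989 across the 6 libraries. For Agpat2 they were Samm50 and its own relative Agpat1, at 0.987 and 0.986. For Lpin1 they were Ivd, an enzyme of leucine breakdown, and Harbi1, both at 0.992, and for Dgat1 they were Chid1 and Ptdss2 at 0.992 and 0.991. Agpat3 was most like Abhd16a and Bloc1s4, at 0.997 and 0.995, Dgat2 most like Letmd1 and Afg3l2, at 0.990 and 0.988, and Gpd1 most like Gm49172 and Tigd5, at 0.984 and 0.978. Pnpla3 was most like Ccdc68 and Fam234a, at 0.994 and 0.987. Each is the top of a search over all these genes, on 6 libraries that share their depth and tissue makeup, so they are a description only.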

How the data were processed

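RNA from inguinal fat of 6 mice, each sampled singly per the labels, was sequenced. The submitters' processing notes name featureCounts at version 1.5.0-p3, HISAT2 at version 2.0.5, CASAVA, and the build mm8. The deposited values are a signal that, judged from the values themselves, holds read counts scaled by a size factor for each library. Within each library all values (100%) were whole multiples, to within 0.02, of the smallest nonzero value, which gave the recovered reads. Strand use in counting is not given in the sources used here. Exons of Agpat2 and of Gpd1 overlap opposite-strand genes over 3.00% and 13.0% of their length (GENCODE M21, which also gave exon lengths), exons of Pnpla3 overlap a transcript on the same strand over 6.78%, and such reads cannot be told apart.

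Genes averaging at least 1 over the 6 libraries, 22290 in all with the 8 enzymes among them, entered limma 3.58.1 (R 4.3.3) with an intensity trend on log2(value + 1) and Benjamini-Hochberg adjustment. Differences on this scale understate changes of low genes. edgeR 4.0.16 and DESeq2 1.42.0 on recovered reads were alternatives. The code was tested on simulated counts. Named genes were the 8 enzymes, the 2 most abundant per kb of each neighbouring list, and list genes with an unadjusted p under 0.05 or groups without overlap. Gpd1l, Gpd2, Gk, Srebf1 and Mlxipl were added after their values were seen. For likeness, the 2 closest genes by Pearson r were named. The members and lists were chosen with earlier results of these data known. Symbols were missing for 33 identifiers.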

Additional observations from a re-analysis of the deposited data

How the results depend on the processing

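With all 6 mice, 0 of the 8 enzymes passed under each of the alternatives run. Over all genes the count of 0 became 1023 of 16141 with limma-voom with quality weights and 1201 of 22290 at an unadjusted p under 0.05. edgeR and DESeq2 on recovered reads called 0 genes, with 754 and 1186 at an unadjusted p under 0.05. Leaving out each mouse in turn gave 0 to 844 genes, the 844 without Control 1, and medians of the enzymes from -0.23 to 0.27. Trends on GC content and length removed gave a median of -0.31. The pairs of mice with the same number had correlations of deviations of 0.18, 0.39 and 0.04. Pairs with different numbers ran from -0.36 to 0.21, the highest being SF 8w-SR 2w 3 with Control 1. These values do not settle whether the number pairs the mice, and the main fit used no pairing. With the replicate number as a block 0 genes were called, and the median of the enzymes was 0.06. In that fit the smallest limma adjusted p was 0.0705. It had 2676 genes at an unadjusted p under 0.05, against 1201 in the main fit.

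Signs turned for the following log2 differences, none passing, and the cause was not tested. Library size gave 0.10 for Lpin1, 0.073 for Dgat1, 0.11 for Dgat2 and 0.10 for Bscl2, and TMM gave 0.011 for Dgat2. edgeR gave -0.011 for Gpd1 and 0.017 for Bscl2, DESeq2 -0.032 and 0.0037, and limma-voom with quality weights 0.019 for Lpin1. The B and plasma cell covariate gave -0.055 for Gpd1 and -0.14 for Pparg, and levels relative to adipocyte markers -0.026 and -0.086. Without SF 8w-SR 2w 1 and Control 2 together, Agpat2 had -0.18, Gpd1 -0.18, Pnpla3 -0.14, Pck1 -0.24, Aqp7 -0.14, Cebpa -0.091 and Pparg -0.37. With GC content and length trends removed, Agpat2 had -0.39, Lpin1 0.062, Gpd1 -0.27, Pnpla3 -0.22, Pck1 -0.11, Pgs1 -0.10, Cebpa -0.41 and Pparg -0.15. With each mouse left out in turn, Agpat2 ran from -0.13 to 0.51, Lpin1 from -0.22 to 0.20, Dgat1 from -0.26 to 0.10, Dgat2 from -0.32 to 0.19, Gpd1 from -0.38 to 0.54 and Pnpla3 from -0.13 to 0.79. Over the same fits Pck1 ran from -0.10 to 0.34, Aqp7 from -0.0024 to 0.32, Bscl2 from -0.27 to 0.13, Crls1 from -0.30 to 0.043, Cebpa from -0.0050 to 0.33 and Pparg from -0.27 to 0.34. The number of mice limits the precision.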
